A study of Mus musculus with 6 samples.

Results

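The collagen genes of the mouse optic fissure were examined in control embryos and in embryos labelled as lacking the FGF receptor genes Fgfr1 and Fgfr2 in the eye field. Members were all genes with a probe set whose only gene symbol has the form Col, a number, a and a number, and each gene was read from its probe set with the highest mean intensity over the 6 arrays. This gave 42 collagen genes, from 82 probe sets, of 18193 genes on the array. They fall into 11 fibrillar, 6 type IV, 5 type VI and 20 other collagens. Both groups were C57BL/6J embryos at E11.5 with loxP-flanked (fx/fx) alleles of Fgfr1 and of Fgfr2, and they differed in the Six3Cre transgene, which recombines such alleles in the early eye field and was absent from the 3 control samples and present in the 3 FGFR mutant samples. The fissure, the ventral groove through which the optic cup closes, was taken by laser microdissection, and each sample was hybridised to 1 Affymetrix array. Arrays are named by the number in their titles, 8711, 9216 or 9266, each used for 1 control and 1 mutant. Nothing in the labels says whether samples came from separate embryos or from pools, so p-values rest on a spread among samples that may be technical, and 3 arrays per group limit the precision of every difference. Tissue around the optic cup does not carry Six3Cre recombination by design, so collagens made there come from cells that should keep both receptors.

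Collagens are secreted or membrane proteins whose chains wind into triple helices. Fibrillar collagens such as types I, II, III, V and XI form the banded fibrils of mesenchyme, cartilage and vitreous. Type IV collagen is the network of basement membranes, including those on both sides of the optic cup that must be removed where the fissure margins fuse. Type VI collagen forms beaded filaments beside basement membranes and in connective tissue, and FACIT collagens such as types IX and XII sit on the surface of fibrils. Collagen chains are folded and hydroxylated in the endoplasmic reticulum, trimmed and crosslinked outside the cell, bound by integrins and discoidin domain receptors, and cut by metalloproteinases.

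Intensities are the authors' deposited linear values, whose 2% trimmed mean was 150 in every array. Differences are on the log2 scale after adding 1.7 to each intensity, mutant minus control, so that 1 unit is a doubling, and they understate the change of dim genes. The mutant 8711 array stood apart, with a median intensity of 18.1 against 28.7 to 34.6 in the other arrays, a mean correlation with the others of 0.836 against 0.917 to 0.932, and a ratio of 3 prime to 5 prime Gapdh signal of 93.6 against 4.26 to 15. Of the deleted genes, Fgfr1 had lower means in the arrays labelled mutant on all 3 of its probe sets, by log2 differences of -1.46 to -0.59, and its brightest probe set read 247, 89.8 and 238 in control arrays and 59.9, 64.1 and 141 in mutant arrays. Fgfr2 had higher means on all 3 of its probe sets, by 0.99 to 1.44, and its brightest probe set read 351, 314 and 474 in control arrays and 869.9, 928 and 1316 in mutant arrays, with no overlap. The Fgfr1 probe set at -1.46 had a mutant mean of 11.8, and the Fgfr2 probe set at 1.32 a control mean of 10.9. Both means are under the filter level of 15.1 described below. Each was therefore tested because of its other group, and its difference is a description only. None of the 6 probe sets of the deleted genes passed adjustment in limma. Where these probe sets lie relative to the deleted exons is not known here, so the Fgfr2 values neither check the labels nor show the deletion, and control and mutant are used throughout as the arrays are labelled. Optic cup genes were present in every array, with mean intensities in controls and mutants of 1268 and 601 for Six6, 744 and 583 for Vax2 and 1565 and 2228 for Pax6. Of the 42 collagens, 35 had a mean log2 intensity at or over the 40th percentile of all probe sets (a linear intensity of about 15.1) and were tested with limma. A further 7 (Col4a3, Col6a4, Col6a5, Col9a3, Col10a1, Col14a1 and Col17a1) lay under it and were not tested.

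No collagen passed the test across all probe sets. In limma, 0 of the 35 collagens had an adjusted p under 0.05, as for all 27022 probe sets tested (0%), and the smallest adjusted p of a collagen was 0.356. At an unadjusted limma p under 0.05, 2 of 35 collagens were higher in the mutants (Col25a1 and Col24a1; 5.71%, against 4.38% of all 12281 genes tested) and 1 was lower (Col9a2; 2.86%, against 2.52%). The 3 mutant values lay above all 3 control values in 4 collagens (Col25a1, Col24a1, Col6a2 and Col5a3; 11.4%, against 9.38% of all genes) and below them in 1 (Col9a2; 2.86%, against 5.45%). These shares are near those of all genes, and so are no result about the collagens as a family. Leaving out mutant 8711 raised the higher genes from 2 to 4, adding Col1a2 and Col8a1, while the share of all genes went to 5.50%. With 1 array left out, the collagens with all mutant values above the controls numbered 4 to 8 (8 without control 9266, with 13.2% of all genes, 8 without mutant 8711, with 15.3%, and 7 without mutant 9216, with 17.1%), and those with all values below numbered 1 to 5 (5 without mutant 9266, with 13.1% of all genes, 3 without control 9216, with 14.5%, and 2 without mutant 8711, with 11%). Higher means in the mutants were found for 20 of the 35 (57.1%, against 53.3% of all genes), with a median difference of 0.07, against 0.03 for all genes. Centring each array on its median moved the median of all genes to 0.14 and the split of the collagens to 24 higher and 11 lower (68.6%, against 64.4% of all genes).

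**Figure D1:**
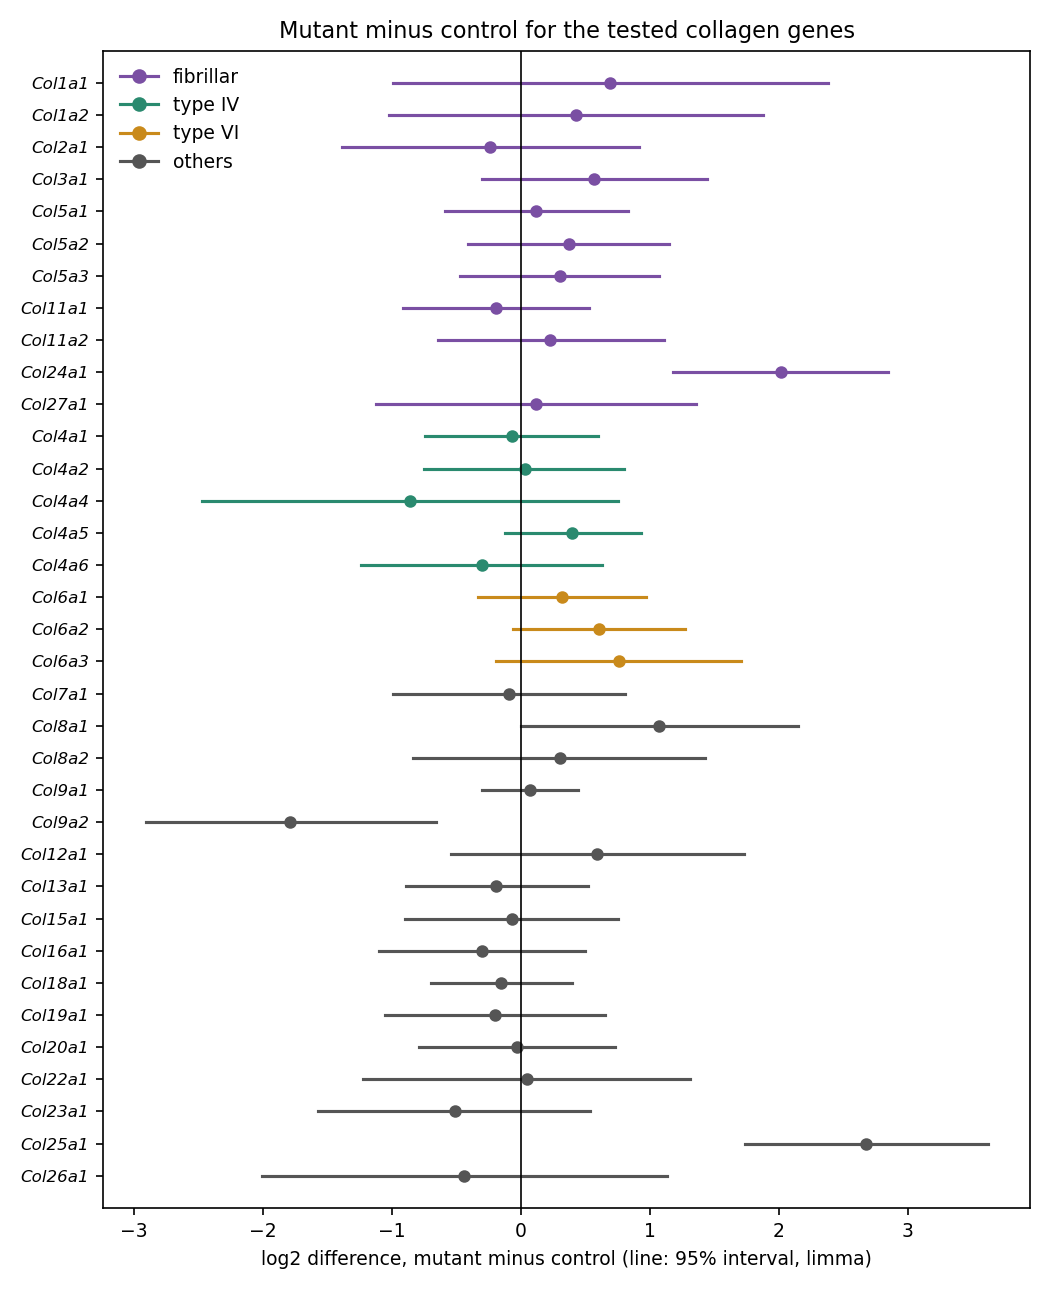
Log2 difference, mutant minus control, for each of the 35 tested collagens (points) with its 95% interval from limma (lines), coloured by class. Intervals leave out 0 for Col25a1 (2.68), Col24a1 (2.02) and Col9a2 (-1.79), none of which passed adjustment over all probe sets.

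Col25a1 had the largest difference of any collagen. It encodes a transmembrane collagen of neurons, needed for motor axons to innervate muscle. Control arrays 8711, 9216 and 9266 read 47.8, 109.5 and 68.6, and mutant arrays 8711, 9216 and 9266 read 389.9, 365 and 706; values of other genes follow this order. Every mutant value was more than 3 times the highest control value. From a control mean of 75.3 ± 31.4 (SD, n = 3) to a mutant mean of 487 ± 190.0 (SD, n = 3), the log2 difference was 2.68 (SE 0.40, 95% interval 1.74 to 3.62) or 6.40-fold, with a limma p of 2.84e-04 and an adjusted p of 0.356. With 1 array left out the difference ran from 2.38 to 2.98. A second, dimmer Col25a1 probe set did not show it: control arrays read 22.9, 21.5 and 23.7, mutant arrays 10.2, 44.0 and 35.5, and the difference was 0.16 (SE 0.54), or 0.76 without mutant 8711. Averaged over both probe sets the difference was 1.42.

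Col24a1, a fibrillar collagen known from developing bone and cornea, was the other higher member. Control arrays read 48.5, 26.3 and 47.2, and mutant arrays 206, 126 and 169.8. The lowest mutant array stood well above the highest control array, and the difference was 1.85 without mutant 8711. From 40.7 ± 12.5 (SD, n = 3) in controls to 167 ± 39.7 (SD, n = 3) in mutants, the log2 difference was 2.02 (SE 0.35, 95% interval 1.18 to 2.85) or 4.05-fold, with a limma p of 7.41e-04 and an adjusted p of 0.410. Col24a1 had 1 probe set.

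Col9a2 encodes a chain of type IX collagen, a FACIT collagen that coats the type II fibrils of cartilage and vitreous. Control arrays read 78.1, 31.5 and 76.0, and mutant arrays 9.90, 19.0 and 19.2. All mutant values were low, near the intensity of 15.1 under which genes were not tested, and the nearest control array was 9216. From 61.9 ± 26.3 (SD, n = 3) in controls to 16 ± 5.31 (SD, n = 3) in mutants, the log2 difference was -1.79 (SE 0.47, 95% interval -2.91 to -0.66) or 3.45-fold lower, with a limma p of 0.00717 and an adjusted p of 0.613. With 1 array left out it ran from -2.20 to -1.51. The partner chain Col9a1 had no such difference. Its control arrays read 7648, 6504 and 7876, and its mutant arrays 8538, 6278 and 8425. The control mean was 7343 ± 735 (SD, n = 3), the mutant mean 7747 ± 1273 (SD, n = 3) and the difference 0.07 (SE 0.16, 95% interval -0.30 to 0.44). Both 9216 arrays were the lowest of their group, and the groups overlapped. A second Col9a1 probe set, reading 1332, 975 and 1104 in control arrays and 523, 749.9 and 1045 in mutant arrays, had a difference of -0.60 (SE 0.28, limma p of 0.0727, adjusted p of 0.852), or -0.35 without mutant 8711. Its groups also overlapped. The third chain, Col9a3, was one of the 7 collagens under the filter, reading 4.90 to 22.1 in control and 5.20 to 41.6 in mutant arrays.

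**Figure D2:**
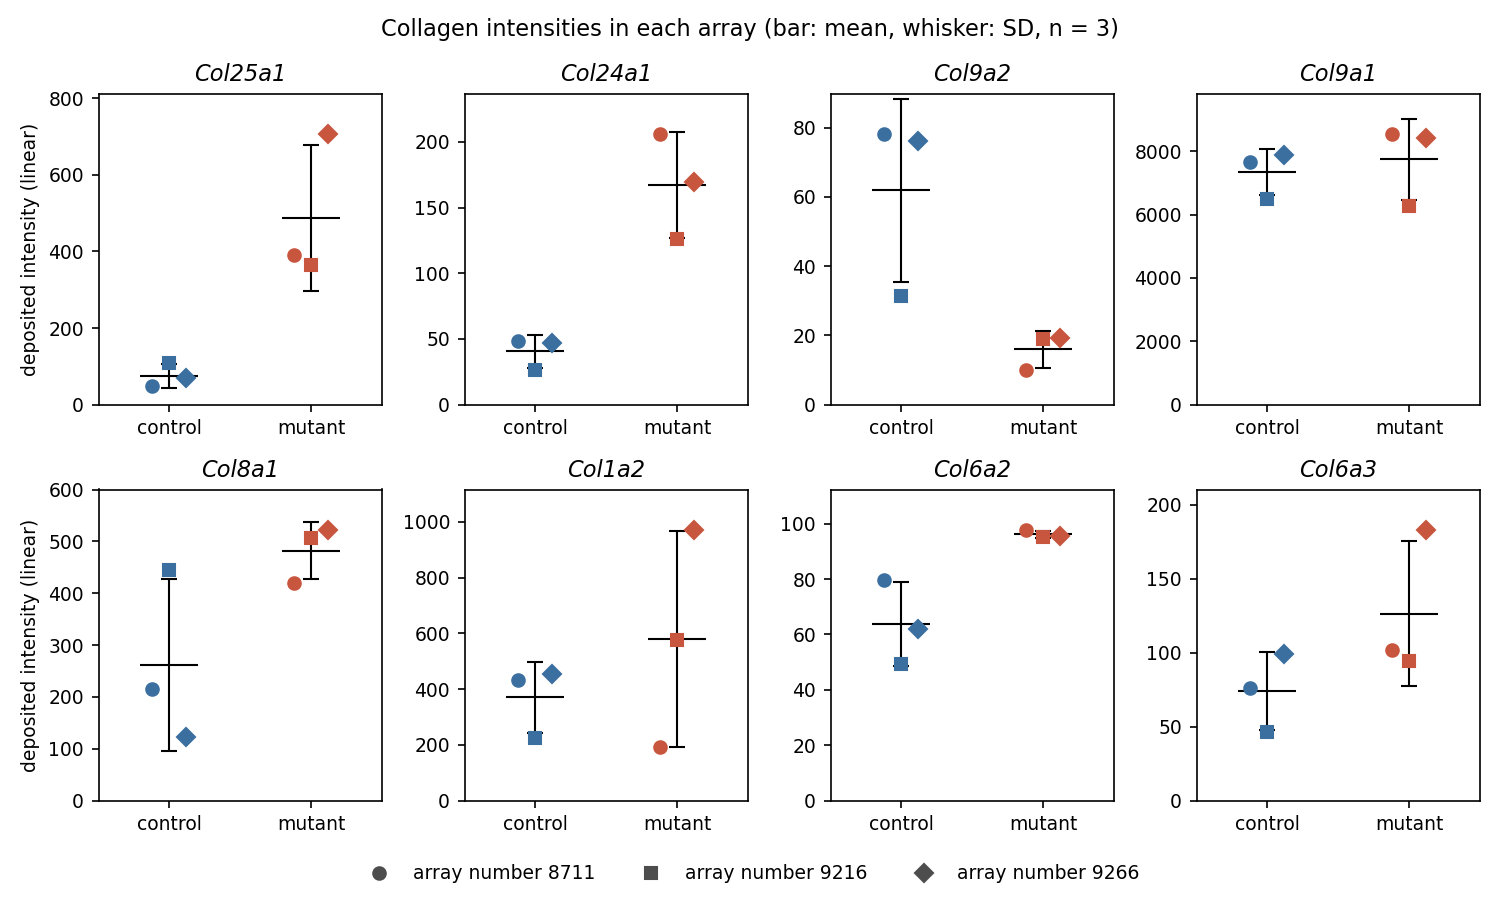
Deposited linear intensity of 8 collagens in each control (blue) and FGFR mutant (red) array, with the array number as the marker shape and the mean and SD of 3 arrays in black. The groups do not overlap for Col25a1, Col24a1, Col9a2 and Col6a2, while Col1a2, Col8a1, Col6a3 and Col9a1 overlap.

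Sequence upstream of these 4 genes is shown because 3 of them had the differences with the smallest p among the collagens and Col9a1 has 2 annotated start sites. RefSeq (GRCm38.p6) windows were found for 33 of the 42 genes, 36 windows in all, and the 250 bases before each start site were read 5′ to 3′ on the gene's strand. Capitals mark matches, on either strand, to the letters of the CCAAT box, of the GC box (GGGCGG) and of the TATA box (TATAAA). The windows lie at chr3:130180595-130180844 (+) for Col25a1, chr3:145292222-145292471 (+) for Col24a1, chr4:121039316-121039565 (+) for Col9a2, and chr1:24177360-24177609 (+) and chr1:24194953-24195202 (+) for the upstream and the downstream start of Col9a1.
Col25a1: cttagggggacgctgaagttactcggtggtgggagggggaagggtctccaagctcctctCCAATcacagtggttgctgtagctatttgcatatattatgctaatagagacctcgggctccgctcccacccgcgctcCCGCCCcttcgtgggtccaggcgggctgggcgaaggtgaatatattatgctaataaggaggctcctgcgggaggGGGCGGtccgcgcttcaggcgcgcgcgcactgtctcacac
Col24a1: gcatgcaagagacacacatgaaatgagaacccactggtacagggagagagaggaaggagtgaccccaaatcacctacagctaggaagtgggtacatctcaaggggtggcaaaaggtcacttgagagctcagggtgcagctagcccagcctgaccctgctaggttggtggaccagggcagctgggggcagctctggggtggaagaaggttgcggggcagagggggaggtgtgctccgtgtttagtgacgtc
Col9a2: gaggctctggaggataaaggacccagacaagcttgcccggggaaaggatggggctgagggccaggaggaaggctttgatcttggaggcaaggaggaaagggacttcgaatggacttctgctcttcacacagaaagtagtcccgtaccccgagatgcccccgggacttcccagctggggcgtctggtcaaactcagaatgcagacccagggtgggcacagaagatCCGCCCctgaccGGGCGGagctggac
Col9a1 upstream start: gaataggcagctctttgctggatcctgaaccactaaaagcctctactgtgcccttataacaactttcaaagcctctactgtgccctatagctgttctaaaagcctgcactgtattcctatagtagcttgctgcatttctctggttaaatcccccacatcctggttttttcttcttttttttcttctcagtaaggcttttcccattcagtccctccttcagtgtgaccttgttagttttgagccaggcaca
Col9a1 downstream start: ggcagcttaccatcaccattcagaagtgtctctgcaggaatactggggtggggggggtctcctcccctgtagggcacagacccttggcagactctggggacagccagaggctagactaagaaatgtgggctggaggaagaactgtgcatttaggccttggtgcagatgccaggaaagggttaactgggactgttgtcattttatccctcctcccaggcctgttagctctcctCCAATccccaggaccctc

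The Col25a1 window held 1 CCAAT and 2 GGGCGG matches, the first base of the CCAAT lying 191 bases before the start site. It also held the run atatattatgctaata at 2 places, starting 161 and 75 bases before the start, a perfect repeat of 16 bases. A repeat of that length or longer was found in 650 of 32851 windows of all genes (1.98%) and in 2 of the 36 collagen windows, the other being that of the upstream Col9a1 start. The Col24a1 window held none of the 3 motifs. The Col9a2 window held 2 GGGCGG matches, 26 and 14 bases before the start, and the downstream Col9a1 window 1 CCAAT, 18 bases before its start, which lies 17593 bases from the upstream one. Over the collagens, 13 of 36 windows held CCAAT (36.1%, against 33.8% of all windows), 21 GGGCGG (58.3%, against 32.7%) and 5 TATAAA (13.9%, against 12.4%). A match is a description of the letters, and the data do not say which start a probe set reads.

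Among the fibrillar collagens, 9 of 11 had higher means in the mutants (81.8%, against 53.3% of all genes). Their median difference was 0.30, against 0.03 for all genes. Without control 9216 this median was 0.11, and leaving out mutant 9266 gave 0.13. Type I collagen is the main fibril of mesenchyme. For its chain Col1a2, control arrays read 431, 224 and 455 and mutant arrays 193, 576 and 970.1, a difference of 0.43 (SE 0.61). The mutant arrays held both the lowest and the highest value, and the difference was 1.08 without mutant 8711 and -0.08 without mutant 9266. A second Col1a2 probe set did not overlap between the groups, reading 145, 93.1 and 155 in control arrays and 183, 178 and 309 in mutant arrays, a difference of 0.75 (SE 0.33, adjusted p of 0.852). Col1a1 was dim, with 31.0, 8.90 and 48.8 and then 34.0, 22.9 and 82.4, and a difference of 0.69 (SE 0.71), or 0.05 without control 9216.

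Type III collagen, which mixes with type I in soft connective tissue, is encoded by Col3a1, which read 901, 361 and 719.7 in control arrays and 1169, 873 and 753 in mutant arrays. Its difference was 0.57 (SE 0.37), or 0.19 without control 9216, and control 8711 lay above mutants 9216 and 9266. A second Col3a1 probe set had 0.62 (SE 0.42). Type V collagen helps set fibril width. Col5a1 read 223, 229.6 and 229.7 in control arrays and 205, 195 and 379 in mutant arrays, a difference of 0.12 (SE 0.30) that rested on mutant 9266 and was -0.18 without it. Col5a2 read 273, 205 and 385 and then 503, 274 and 340.3, a difference of 0.37 (SE 0.33) with overlapping groups. Col5a3 was dim but did not overlap, at 15.8, 21.6 and 21.4 and then 22.2, 22.1 and 29.2, a difference of 0.30 (SE 0.33), although the lowest mutant value exceeded the highest control value by little.

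The fibrillar collagens of vitreous and cartilage differed in sign. Col2a1, the chain of type II collagen, read 371, 160.4 and 451 in control arrays and 271, 158 and 383 in mutant arrays, a difference of -0.24 (SE 0.48) with overlapping groups, in which both 9216 arrays were the lowest. Col11a1, a chain of the type XI collagen found inside those fibrils, read 348, 179.9 and 260.1 and then 189.9, 210.4 and 273, a difference of -0.19 (SE 0.30) with overlapping groups. Col11a2 had 0.23 (SE 0.37). A second Col11a1 probe set had 0.26 (SE 0.28), the opposite sign. Col27a1, a fibrillar collagen of cartilage, had 0.12 (SE 0.52), or -0.37 without mutant 9266 and 0.68 without mutant 8711, the array in which its intensity was 51.0 against 89.5 to 224 in the others. Of 5 cartilage markers, Acan, Matn1 and Comp were under the filter, and the summed intensity of the 5 was 135 to 155 in control and 120 to 192 in mutant arrays. Most of that sum was Sox9, at 89.9 to 131 in control and 72.6 to 143 in mutant arrays, so it is mainly a reading of 1 gene.

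No type IV collagen reached an unadjusted limma p under 0.05 (4.38% of all genes did so higher and 2.52% lower). The groups of each overlapped, while 9.38% of all genes had all mutant values above the controls and 5.45% below. With 5 genes tested, these counts are no result about type IV collagens. Of the 5 tested, 2 had higher and 3 lower means, with a median difference of -0.07. The median was 0.04 after median centring and 0.03 with the tested probe sets of each gene averaged. The 3 lower genes each had a second tested probe set of the opposite sign. It had 0.17 (SE 0.29) for Col4a1 and 0.06 (SE 0.42) for Col4a6, and that of Col4a4 is given below. The genes Col4a1 and Col4a2, whose products form the common basement membrane trimer, lie on opposite strands, with RefSeq start sites 21 bases apart. Col4a1 read 807, 536 and 793 in control arrays and 479, 738 and 837 in mutant arrays, a difference of -0.07 (SE 0.28, 95% interval -0.74 to 0.60). Col4a2 read 283, 184 and 295 and then 293, 172 and 321, a difference of 0.03 (SE 0.33, 95% interval -0.75 to 0.80). The groups of both genes overlapped, and the intervals leave room for changes of 0.60 to 0.80 upward and 0.74 to 0.75 downward. Col4a5 and Col4a6, the pair of X-linked chains, also lie on opposite strands, with start sites 1343 bases apart. Col4a5 read 417, 537 and 444 in control arrays and 726, 494 and 643 in mutant arrays, a difference of 0.40 (SE 0.22), the smallest p of the type IV genes (limma p of 0.113, adjusted p of 0.852). Mutant 9216 lay among the controls, and the other mutants above them. The sex of the embryos is not known here. Without mutant 8711, the X-linked gene Xist was the 1 gene with an adjusted limma p under 0.05. The part of embryo sex in the values of the X-linked chains was not tested. Col4a6 had a difference of -0.30 (SE 0.40). Col4a4 had -0.86 (SE 0.68), which was -0.06 without mutant 8711, where its intensity was 4.10 against 27.7 to 32.1 in the others, and its second tested probe set had 0.60. Endothelial cells also make type IV collagen. Of the 10 endothelial markers 8 were tested, 3 higher and 5 lower, with a summed intensity of 397 to 752 in control and 285 to 591 in mutant arrays. Their part in the type IV values was not tested.

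All 3 tested type VI chains had higher means in the mutants, as did 53.3% of all genes. Their median difference was 0.61 (0.40 with the tested probe sets of each gene averaged). Col6a1 read 62.0, 53.9 and 69.9 in control arrays and 67.3, 76.0 and 90.0 in mutant arrays, a difference of 0.32 (SE 0.27), with mutant 8711 below the highest control. Col6a2 had 79.6, 49.5 and 62.1 and then 97.7, 95.2 and 95.7, a difference of 0.61 (SE 0.28, limma p of 0.0681), with every mutant value above every control value. Its second probe set had 0.19 (SE 0.41), or 0.57 without mutant 8711. Col6a3 had 76.5, 46.4 and 99.0 and then 102, 94.6 and 183, a difference of 0.76 (SE 0.40, limma p of 0.0991), with mutant 9216 just under control 9266. The adjusted p was 0.852 for each of the 3. Col6a4 and Col6a5 were under the filter, at 3.30 to 15.6 and 0.3 to 7. On its brightest probe set, each of the 3 tested chains had the higher mean in the mutants with any array left out. The second Col6a2 probe set ran from -0.12 to 0.57.

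The network-forming chain Col8a1, which makes the lattice under corneal and vascular endothelium, read 216, 445 and 122 in control arrays and 419, 506 and 522 in mutant arrays. The controls varied more than the mutants, and control 9216 lay above mutant 8711. The difference was 1.07 (SE 0.45, limma p of 0.0505, adjusted p of 0.852), from 0.63 without control 9266 to 1.56 without control 9216. A second Col8a1 probe set had 0.49 (SE 0.66), and the partner chain Col8a2 had 0.30 (SE 0.48). Col12a1, a FACIT collagen of fibril surfaces under tension, read 36.7, 17.7 and 15 and then 21.2, 33.9 and 50.7, a difference of 0.59 (SE 0.48) with overlapping groups. The basement membrane collagens Col18a1, which holds the endostatin fragment and is needed for normal eye development, and Col15a1 had -0.15 (SE 0.23) and -0.07 (SE 0.35). Col18a1 read 1911, 1192 and 1615 in control arrays and 1317, 1212 and 1690 in mutant arrays, again with the 9216 arrays lowest. Col15a1 read 52.4, 38.6 and 43.3 and then 53.9, 48.1 and 28.9, with overlapping groups. The transmembrane collagen Col23a1 had 165, 84.1 and 171 and then 101, 56.0 and 142, a difference of -0.51 (SE 0.44). Its other probe sets had -0.67 (SE 0.32), with all mutant values below the controls, and -1.26 (SE 0.93), or -0.16 without mutant 8711. Col26a1 had -0.44 (SE 0.66), or 0.23 without mutant 8711. The other tested members, Col7a1, Col13a1, Col16a1, Col19a1, Col20a1 and Col22a1, had differences from -0.30 to 0.05, with overlapping groups.

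**Figure D3:**
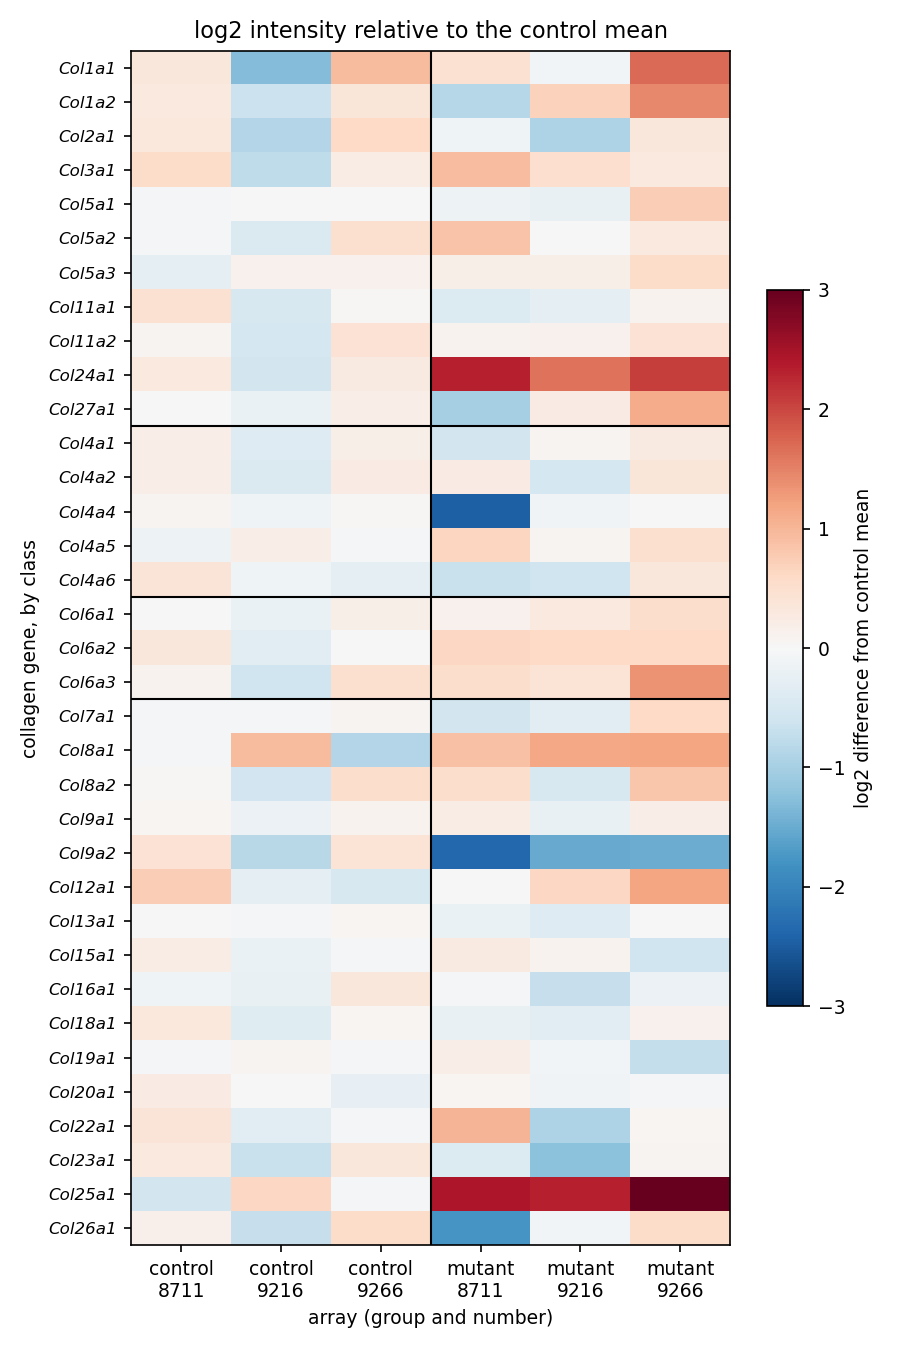
Log2 intensity of each tested collagen in each array, relative to its mean over the 3 control arrays, with lines between the fibrillar, type IV, type VI and other classes and between control and mutant arrays. Col25a1 and Col24a1 are high in all 3 mutant arrays and Col9a2 is low, control 9216 is below the control mean for most genes, and Col4a4 and Col26a1 have their lowest values in mutant 8711.

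Chains that share a trimer were also compared within each array, in 10 pairs chosen after the values were seen. The measure was the log2 ratio of their intensities, each with 1.7 added, which pulls the ratios of dim chains toward those of brighter ones. Such a ratio shows unequal change of a pair and not the level of either chain. The ratio of Col9a2 to Col9a1 was -6.58, -7.61 and -6.66 in control arrays and -9.52, -8.24 and -8.66 in mutant arrays, lower in every mutant array, a difference of -1.85 in the mean. Since Col9a1 differed by 0.07 on the brightest probe set used here, this ratio restates the Col9a2 difference of -1.79, with its mutant values near the filter level. It is given as a description. The second Col9a1 probe set differed by -0.60, and no ratio was taken with it. No pair had an adjusted p under 0.6 over the 10 pairs (two-sided exact permutation test, whose smallest p for 3 against 3 arrays is 0.1). The ratio of Col4a1 to Col4a2 was 1.49 ± 0.06 (SD, n = 3) for control arrays and 1.39 ± 0.69 (SD, n = 3) for mutant arrays, where mutant 8711 had 0.70 and mutant 9216 had 2.09. This ratio varied less among the controls than among the mutants, a difference in spread that was not tested. The ratios of Col6a2 and of Col6a3 to Col6a1 differed by 0.29 and 0.44, and the other pairs by -0.78 to 0.42, all with overlapping groups.

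The arrays of 1 group differed among themselves in their collagens. Control 9216 was the lowest control array for 25 of the 35 collagens, and mutant 9266 the highest mutant array for 24. For the fibrillar genes the median deviation from the control mean was 0.29, -0.52 and 0.26 for controls and 0.11, 0.14 and 0.55 for mutants. For type VI it was 0.11, -0.33 and 0.18 and then 0.53, 0.41 and 0.60, so the fibrillar groups overlapped and the type VI groups did not. The type VI median rests on 3 genes. The medians of the network-forming collagens, the fibril-associated genes and the pigment epithelium markers did not overlap between the groups either. Mesenchyme markers, a list without collagens, had 0.21, -0.62 and 0.44 for controls and 0.39, 0.51 and 0.65 for mutants, with control 9216 the lowest here too. Of 13 such markers read 10 were tested and 9 of these were higher (Snai2 was at -0.01), with a summed intensity of 1124 to 1701 in control and 1703 to 1888 in mutant arrays. Twist1 had the largest of these differences, at 1.73. Its control arrays averaged 13.5, dimmer than the 15.1 needed for testing, and mutant readings of 40.8 to 55.5 brought it in. Its place among the 9 thus follows from the selection, and its difference is only descriptive. Tcf21, Meox1 and Meox2 were under the filter, and none was at 0 in every array. Their part in the fibrillar and type VI values was not tested. Other lists were read beside Col25a1, Col24a1 and Col9a2. Pigment epithelium markers were higher in 8 of 8, with summed intensities of 11579 to 13969 in control and 18060 to 31492 in mutant arrays, and markers of neural retina and ventral optic cup were lower in 8 of 9 tested, with sums of 6944 to 8410 and 4973 to 6036 and Hes5 under the filter. Macrophage markers were higher in 8 of 10 (1520 to 2081 against 2236 to 2843). Erythroid markers were higher in 5 of 5 tested (13308 to 17812 against 17040 to 18339) and lens markers in 2 of 6 tested (2241 to 3336 against 1475 to 3232). Of all genes, 53.3% had higher means. The sums of the erythroid and of the lens markers overlapped between the groups. Those of the macrophage markers did not, but a large part of them was Csf1r, at 859 to 951 in control and 1085 to 1531 in mutant arrays. The median deviations of the macrophage markers overlapped, at -0.44 to 0.24 in control and 0.17 to 0.58 in mutant arrays. The part of these cell types in the 3 genes was not tested. In a dissected tissue, fewer cells of a type and less RNA per cell cannot be told apart.

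**Figure D4:**
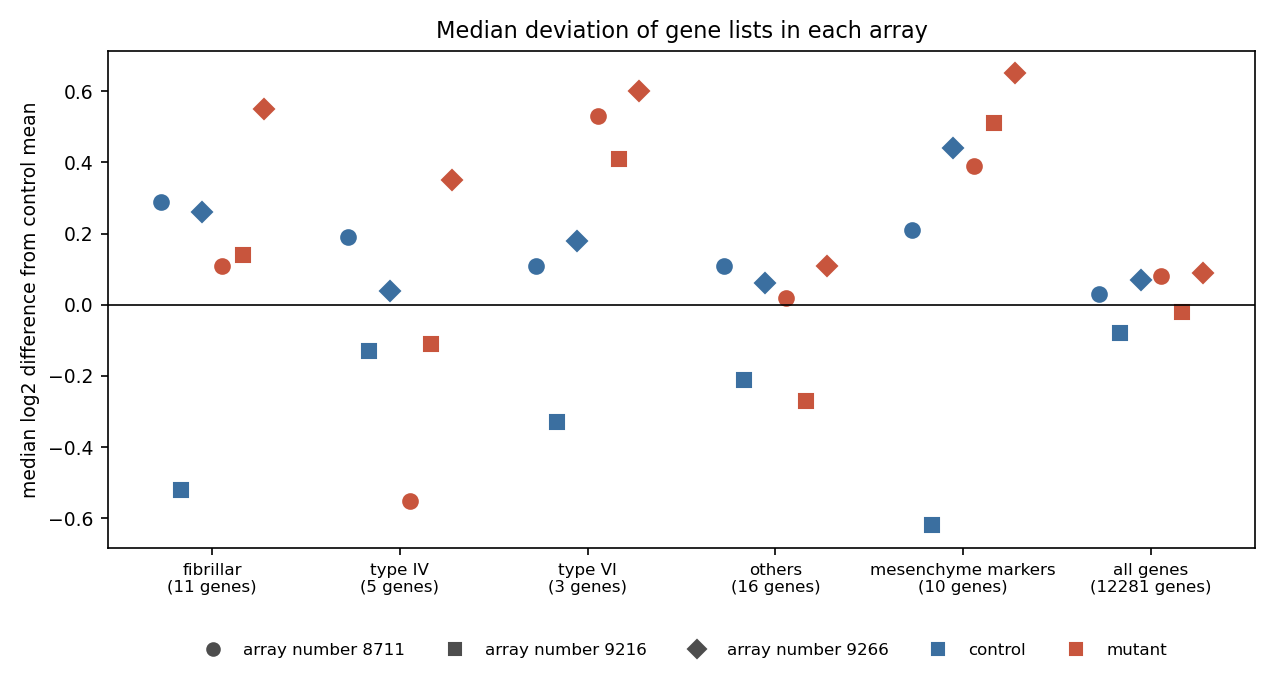
Median log2 difference from the control mean over the genes of each list, for each control (blue) and mutant (red) array, with the array number as the marker shape. Control 9216 is the lowest control for each of the 6 lists. Of these, the type VI list (3 genes) alone has all 3 mutant arrays (0.41 to 0.60) above all controls (-0.33 to 0.18). Lists not drawn had this too, among them the network-forming collagens (0.34 to 1.02 against -0.18 to 0.19) and the fibril-associated genes (0.29 to 0.42 against -0.21 to 0.23).

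The genes that fold and modify collagen chains had no common direction. Of 23 tested, 9 were higher and 14 lower, with a median difference of -0.10 (0.05 without mutant 8711), and at an unadjusted limma p under 0.05 the count was 0 higher and 1 lower, against 4.38% and 2.52% of all genes. The lower gene was Colgalt2, which adds galactose to hydroxylysine of collagen. Control arrays read 42.6, 23.7 and 47.7 and mutant arrays 2.70, 16.7 and 5.90, a difference of -2.17 (SE 0.59, adjusted p of 0.658 in limma), or -1.69 without mutant 8711. All mutant values were below the controls and 2 of the 3 were under the filter level, so Colgalt2 was tested because of its control values and its call is a description only. Serpinh1, the collagen chaperone HSP47, read 1542, 1117 and 1496 and then 628, 843 and 1329, a difference of -0.62 (SE 0.30), or -0.37 without mutant 8711, with overlapping groups. Plod2, a lysyl hydroxylase, had -1.43 (SE 0.82), or -0.43 without mutant 8711, where it was 16.6 against 134 to 233 elsewhere.

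Outside the cell, 8 of 9 tested trimming and crosslinking genes had higher means (53.3% of all genes did), with a median of 0.22, and 0 reached an unadjusted p under 0.05 in limma, against 4.38% higher and 2.52% lower of all genes. The smallest p values belonged to Tgm2, a transglutaminase, at 0.77 (SE 0.33), and Adamts3, a procollagen N-proteinase, at 0.66 (SE 0.30). In both, all mutant values were above the controls (22.2% of the list, against 9.38% of all genes). Of 22 fibril-associated genes read, 11 were tested and the rest were under the filter. Of those tested, 9 were higher (81.8%, against 53.3% of all genes), with a median of 0.35. At an unadjusted limma p under 0.05, 2 had higher means (Lum and Postn) and 0 had lower means, against 4.38% and 2.52% of all genes. Lum, which encodes the keratan sulfate proteoglycan lumican of the cornea and mesenchyme, read 495, 226 and 467 in control arrays and 660.3, 1000 and 589 in mutant arrays, a difference of 0.96 (SE 0.37), or 0.60 without control 9216. Postn, the matrix protein periostin, had 83.6, 80.3 and 77.0 and then 136, 109 and 318, a difference of 1.05 (SE 0.42), or 0.59 without mutant 9266, which lay far above the rest. Both had an adjusted p of 0.852. Without mutant 8711, 3 members were higher at that threshold, against 5.50% of all genes.

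Receptors of collagen had a median of 0.10 over 11 tested genes, 7 higher (63.6%, against 53.3% of all genes) and 4 lower. Adgrg1, a receptor that binds type III collagen, was the 1 lower of the 11 at an unadjusted p under 0.05 (2.52% of all genes), reading 85.3, 38.1 and 108 in control arrays and 20.8, 26.4 and 33.0 in mutant arrays. The groups did not overlap and the difference was -1.37 (SE 0.45, limma p of 0.0191, adjusted p of 0.773). The discoidin domain receptors Ddr1 and Ddr2 had -0.01 (SE 0.26) and 0.54 (SE 0.34, or 0.28 without control 9216 for Ddr2), and the integrin subunit Itgb1 -0.37 (SE 0.25). Of 10 tested collagenases and inhibitors 7 were higher (70%, against 53.3% of all genes), with a median of 0.33 (0.54 without mutant 8711). At an unadjusted limma p under 0.05, 1 was higher (4.38% of all genes). This was Reck, a membrane inhibitor of metalloproteinases, reading 467, 529.9 and 415 in control arrays and 902, 657 and 615 in mutant arrays, all above the controls, a difference of 0.61 (SE 0.22, limma p of 0.0291, adjusted p of 0.852). Mmp14, a membrane collagenase, had -1.11 (SE 0.79), or -0.13 without mutant 8711, where it was 26.5 against 177 to 259 elsewhere.

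**Figure D5:**
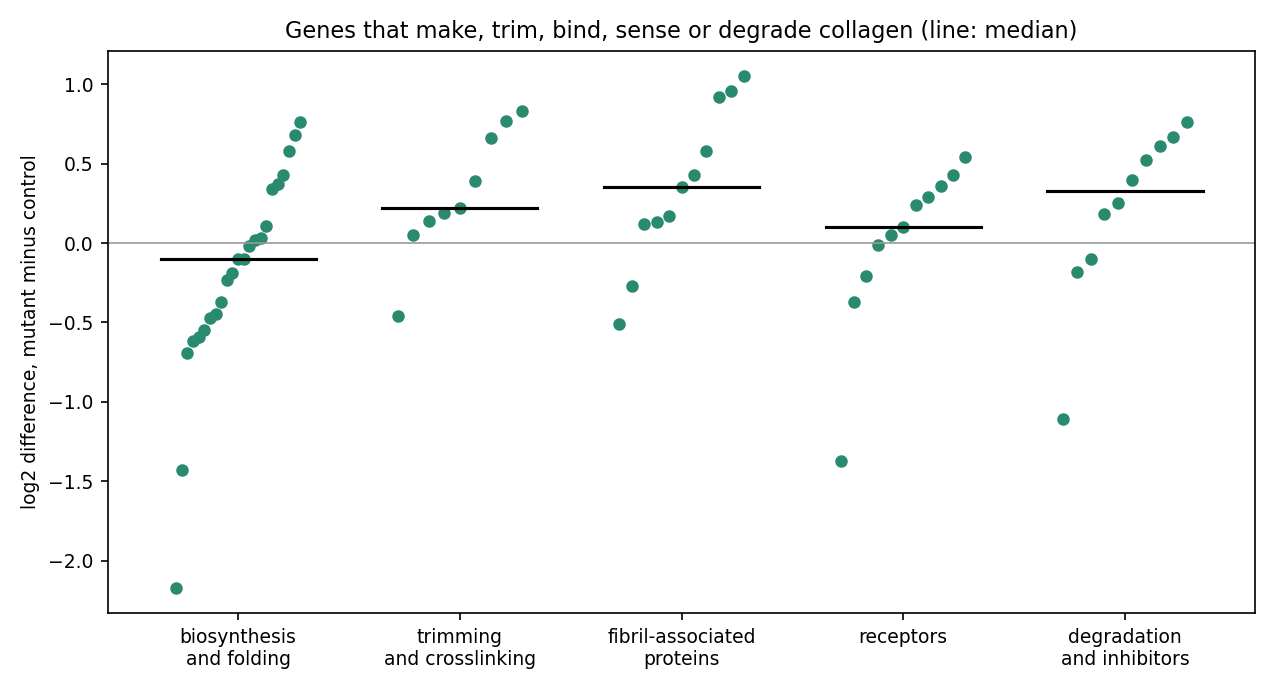
Log2 difference, mutant minus control, of each tested gene (points) in 5 lists of genes that make, trim, bind, sense or degrade collagen, with the median of each list as a line. Medians run from -0.10 for biosynthesis and folding to 0.35 for fibril-associated proteins, and Colgalt2 (-2.17) is the lowest gene.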

How the data were processed

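Per the labels' protocols, Trizol was used to isolate RNA, and 10 ug of total RNA went into biotin labelling. The submitters' processing notes name MAS5. Its version and settings are not given in the sources used here. As deposited, the authors' intensity values are linear, 1 per probe set and array, and were used as they are, since their 2% trimmed mean was 150 in every array. A common mean leaves unequal medians as they are. Of 45101 probe sets, 64 controls were left out. Among the others the platform annotation gave 1 symbol for 34945, several for 932 and none for 9160. Values were log2(intensity + 1.7), the added value being their 10th percentile, and the 27022 probe sets at or over the 40th percentile of mean log2 value (4.07) were fitted together in R 4.3.3 by limma 3.58.1, using lmFit and a trended, robust eBayes, with Benjamini-Hochberg adjustment over all of them and a threshold of 0.05. Python 3.11.15 with matplotlib 3.10.9 made the figures. Chain ratios were compared by two-sided exact permutation tests, and the chain pairs and the promoter repeat were chosen after values were seen.

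The members and the partner and marker lists were chosen with earlier results of these data known. All collagens could be named, with values per array for those with an unadjusted p under 0.05, the smallest p in each class and 16 main chains, and from each partner list the members with an unadjusted p under 0.05 or otherwise the 2 with the smallest p. Serpinh1, Plod2, Mmp14, Ddr1, Ddr2, Itgb1, Col8a1, Col26a1, Col23a1 and Col5a3 were given values after those were seen. The fit was tried on simulated data. Alternatives were other added values, normalizations, filters, variance model, probe set choices, the title number as a block, a threshold of 0.10 and leaving out each array.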

Additional observations from a re-analysis of the deposited data

How the results depend on the processing

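In every setting tried, 0 collagens passed an adjusted p of 0.05, and 0 passed 0.10. The smallest adjusted p was 0.134, for Col25a1 without mutant 8711. Col25a1, Col24a1 and Col9a2 kept their direction in each setting that tested them. Collagens higher at an unadjusted p under 0.05 numbered 4 with quantile normalization (5.11% of all genes), 4 with no filter (4.12%) and 4 with the replicate block (4.55%), against 2 (4.38%), and 2 to 4 with 1 array left out (2.37% to 5.50%). The lower count was 0 with the filter at the 60th percentile (2.62% of all genes), which leaves Col9a2 untested. Collagens with all mutant values below the controls numbered 2 with quantile normalization (4.98% of all genes) or median centring (4.07%) and 0 with the stricter filter (5.57%), against 1 (5.45%), and 1 to 5 with 1 array left out (6.94% to 14.5%). Those above numbered 4 to 8 with 1 array left out (12.1% to 17.1%). The median of the type IV genes was -0.26 to 0.03 with 1 array left out, against -0.07. The arrays share only a number: deviations of same-numbered arrays from their group means correlated at 0.0493, 0.481 and -0.113, and the replicate block changed no call after adjustment. Over the named collagens and partner genes, 37 of 653 pairs of gene and setting had the other sign, and 19 of 35 collagens kept their sign in all settings. The cause of these shifts was not tested. Signal near background limits Col9a2 and Col1a1.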
